A study of Mus musculus with 2 samples.

Results

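The genes of the AMPA-type glutamate receptor and its auxiliary subunits were examined in ribosome footprints of neonatal mouse brain. The set holds 10 genes, picked by symbol as a family, with no threshold on a measured value, of 45578 genes in the deposited table. They are the 4 pore-forming GluA subunits (Gria1, Gria2, Gria3 and Gria4), 5 transmembrane AMPA receptor regulatory proteins or TARPs (Cacng2, Cacng3, Cacng4, Cacng7 and Cacng8), and the cornichon protein Cnih2. All 10 were found, with 35 annotated transcripts between them, and all 10 averaged 10 or more footprints over the libraries and could be tested.

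Ribosome profiling digests lysate with a nuclease and sequences the mRNA pieces, or footprints, that ribosomes protected, here in the polysome fractions of whole brain. The study had 1 group of 2 biological replicates, labelled as control mice at postnatal day 5. Both animals were Smn+/-; SMN2tg/0, which means that 1 copy of the mouse Smn gene was disrupted and a human SMN2 transgene was present, on the FVB background. These controls therefore carry the disrupted allele and the transgene too, and no wild-type brain was analysed here. The counts summed to 1866831 in replicate 1 and 5261878 in replicate 2, so values of replicate 1 carry the wider counting error. Each brain was lysed whole, so more cells of a type and more footprints per cell cannot be told apart.

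AMPA receptors are tetramers of GluA subunits that carry most fast excitatory transmission in the brain. Gria2 encodes the subunit whose RNA is edited at the pore, and receptors that contain it pass little calcium. TARPs and cornichons bind the pore subunits, carry them to the surface and the synapse, and slow the decay of their currents. In rodents, receptor number and subunit makeup change in the weeks after birth as synapses form.

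Levels are given as footprints per kilobase of the longest annotated coding sequence, scaled to a library of 1000000 footprints, and are called level per coding length below. The brackets after a level are its exact Clopper-Pearson 95% interval. Intervals cover counting error only and take each footprint as independent. PCR copies are not independent molecules, so the intervals can be too narrow. Counts belong to whole transcripts, so footprints in untranslated regions are part of every value. Matched RNA levels were not analysed here, so the values say how many ribosomes a gene's transcripts carried and not how well each transcript was translated.

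Markers of brain cells were present in both libraries. All 7 neuronal markers had counts, and their summed level was 5486 CPM (counts scaled to a library of 1000000) in replicate 1 and 4471 CPM in replicate 2. Astrocyte and Bergmann glia markers summed to 1443 and 1535 CPM. Of 6 markers of muscle and liver, Alb had no count, and Acta1, which has near-identical relatives in brain, held most of the 77.7 and 54.7 CPM of that list.

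Gria2 and Cnih2 had the highest levels per coding length of the set in both libraries, and Cacng7 the lowest by its mean and in replicate 2, while Cacng3 was the lowest in replicate 1. Gria2 (ENSMUSG00000033981) had 601 footprints in the first library and 2474 in the second. The level per coding length was 121 (112 to 131) in replicate 1 and 177 (170 to 184) in replicate 2, or 149 ± 39.5 on average (SD, n = 2). The intervals were apart, with replicate 2 the higher.

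Gria1 (ENSMUSG00000020524), a subunit whose phosphorylation and delivery to synapses are much studied in plasticity, had 410 and 1307 footprints. Its level per coding length was 80.6 (73.01 to 88.8) in replicate 1 and 91.2 (86.3 to 96.3) in replicate 2, or 85.9 ± 7.47 (SD, n = 2). The intervals overlapped, with replicate 2 slightly the higher.

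Gria3 (ENSMUSG00000001986) had 181 and 784 footprints, and a level per coding length of 36.4 (31.3 to 42.05) in replicate 1 and 55.9 (52.02 to 59.9) in replicate 2. Gria4 (ENSMUSG00000025892), a subunit with high levels in early life and in cerebellum, had 199 and 712 footprints and levels of 39.4 (34.1 to 45.2) and 49.95 (46.4 to 53.8). Both genes were higher in replicate 2, with intervals that did not overlap on this scale of library totals. Their means, 46.1 ± 13.8 for Gria3 and 44.7 ± 7.50 for Gria4 (SD, n = 2), lay within each other's spread.

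Among the TARPs, Cacng4 (γ-4) and Cacng8 (γ-8, the TARP typical of hippocampus) were the highest. Cacng4 (ENSMUSG00000020723) had 124 and 371 footprints, with levels per coding length of 67.5 (56.2 to 80.5) and 71.7 (64.6 to 79.3). It was among the steadiest of the 10 genes between the libraries. Cacng8 (ENSMUSG00000053395) had 178 and 333 footprints, with levels of 75.0 (64.4 to 86.8) and 49.8 (44.6 to 55.4). Its intervals did not overlap, and replicate 1 was the higher.

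Cacng2 (ENSMUSG00000019146) encodes stargazin, the TARP that is lost in the ataxic stargazer mouse. It had 82 and 203 footprints and levels per coding length of 45.2 (35.9 to 56.1) and 39.7 (34.4 to 45.5). Cacng3 (γ-3, ENSMUSG00000066189) had 52 and 201 footprints and levels of 29.4 (21.9 to 38.5) and 40.3 (34.9 to 46.3). Cacng7 (γ-7, a TARP of the second type, ENSMUSG00000069806) had 52 and 116 footprints and levels of 33.6 (25.1 to 44.1) and 26.6 (22.0 to 31.9). The intervals of the replicates overlapped for all 3 of these genes.

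Cnih2 (ENSMUSG00000024873), a homologue of an export receptor of the endoplasmic reticulum that stays with AMPA receptors at the surface, had 144 and 305 footprints. With the shortest coding sequence of the set, 483 nucleotides, these counts gave levels per coding length of 160 (135 to 188) and 120.0 (107 to 134.3), or 140 ± 28.1 (SD, n = 2). The lower library was replicate 2, and the ends of the intervals nearly met.

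**Figure D1:**
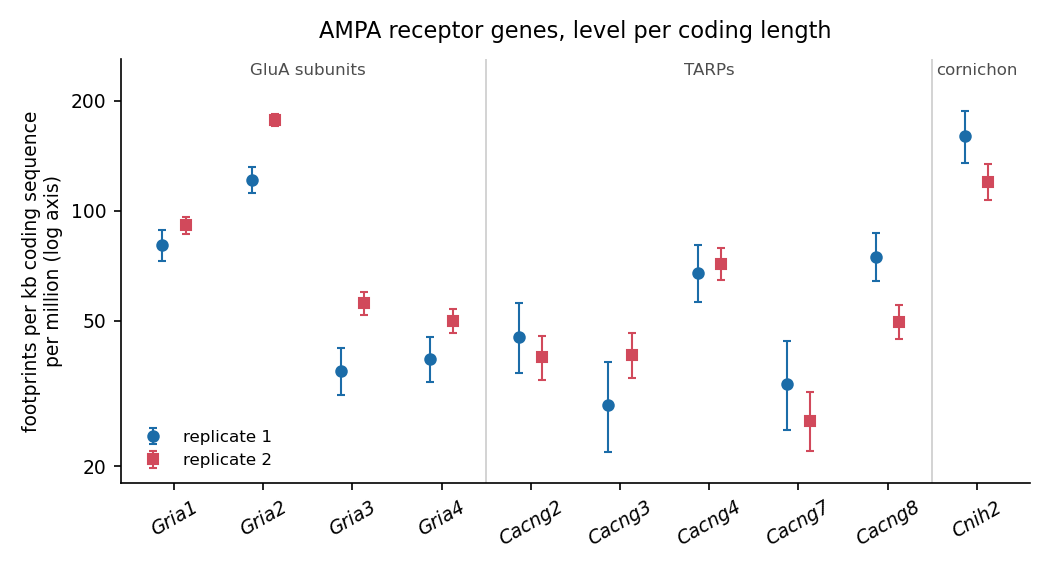
Level per coding length (footprints per kilobase of coding sequence in a library of 1000000, log axis) for each of the 10 genes, with circles for replicate 1, squares for replicate 2 and bars for Clopper-Pearson 95% intervals. Gria2 and Cnih2 stand highest with all transcripts counted, but in opposite order in the 2 libraries.

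In the order of mean levels, Gria2 was followed by Cnih2, Gria1, Cacng4, Cacng8, Gria3, Gria4, Cacng2, Cacng3 and Cacng7. Neighbours in this order mostly did not differ beyond their spread. The exceptions were Cnih2 over Gria1 and Gria1 over Cacng4, whose replicate values did not overlap. The values overlapped for the other 7 neighbouring pairs. Over all 45 pairs of the 10 genes, 34 had replicate values that did not overlap. The highest level was 5.44 times the lowest in replicate 1 and 6.66 times in replicate 2.

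Among the 13317 tested genes with a coding transcript, the median level per coding length was 23.5, and all 10 members lay above it. Gria2 was at percentile 89.9, Cnih2 at 89.2 and Gria1 at 82.0, and the lowest, Cacng7, was at percentile 57.2. The members together took 0.108% (0.104 to 0.113) of all footprints in replicate 1 and 0.129% (0.126 to 0.133) in replicate 2.

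The place of Gria2 rests on how the deposited counts were spread over transcripts. Of its footprints, 38.4% ± 2.46 (SD, n = 2) were on its 2 protein-coding transcripts, 43.5% ± 2.45 on 5 transcripts annotated as retained introns and 18.1% ± 0.00870 on 1 target of nonsense-mediated decay. Gria3 was alike, with 44.8% ± 2.36 on 4 coding transcripts, 35.5% ± 1.75 on 4 retained introns and 19.7% ± 4.11 on 1 decay target. Over the whole table, coding transcripts held 76.3% and 74.7% of the footprints and retained introns 9.09% and 9.64%. Gria1 had 96.9% ± 0.872 on coding transcripts and Cacng4 81.7% ± 4.22. The remaining 6 members had coding transcripts alone.

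Transcripts of these classes share exons with the coding ones, and a footprint in a shared exon can be counted on either, so the total over all transcripts was taken as the gene's value. With coding transcripts alone, the level per coding length of Gria2 was 48.7 in replicate 1 and 64.9 in replicate 2, and that of Gria1 was 78.7 and 87.8. Gria1 was then above Gria2 in both libraries. Gria3 had 15.7 and 25.9 on this count and was the lowest of the 10 by its mean. Which count is nearer to the ribosomes on translated receptor mRNA cannot be told apart from the deposited counts.

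**Figure D2:**
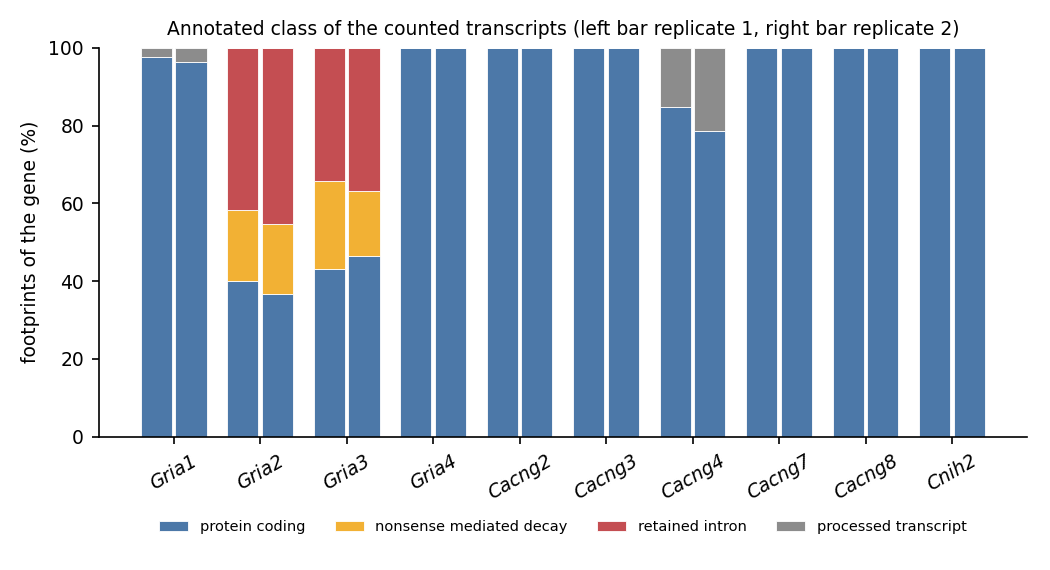
Share of each gene's footprints by the annotated class of the transcript they were counted on, in percent, with the left bar of each pair for replicate 1 and the right bar for replicate 2. Gria2 and Gria3 have the smallest protein-coding shares, at 38.4% and 44.8% on average.

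Pairs of transcripts with the same coding length were set side by side, although the counts give no positions of footprints within a transcript. Gria2-001 and Gria2-002 both have 2652 coding nucleotides, but the first has 6345 nucleotides more of 3′ untranslated sequence. Gria2-001 had 125 footprints against 116 in replicate 1 and 445 against 461 in replicate 2. Its share of the pair was 51.9% (45.4 to 58.3) and 49.1% (45.8 to 52.4), so this pair could not be told from an even split in either library. Gria1-004 and Gria1-005, which differ by 146 nucleotides at the 5′ end, were also even, with shares of the first of 48.6% (42.6 to 54.6) and 49.9% (46.5 to 53.4).

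Cacng8-001 and Cacng8-201 have the same 1272 coding nucleotides, and the first has 474 more of 5′ untranslated sequence and 43 more at the 3′ end. Cacng8-001 held 61.8% (54.2 to 69.0) of the pair in replicate 1 and 55.9% (50.3 to 61.3) in replicate 2. It was above an even split in both libraries. Gria3-001 held 68.5% (54.5 to 80.5) and 60.6% (54.1 to 66.8) of its pair with Gria3-201, a transcript that is annotated with coding sequence alone. Against Gria3-004 it has 2016 nucleotides more at the 3′ end and 95 more at the 5′ end. Its share of that pair was 60.7% (47.3 to 72.9) in replicate 1 and 56.8% (50.5 to 62.95) in replicate 2, above an even split beyond counting error in replicate 2 alone. Gria4-201 and Gria4-202 have identical lengths throughout and 56.4% (48.02 to 64.5) and 49.2% (44.8 to 53.5) of the pair was on the first. GluA subunits come in flip and flop forms that differ by alternative exons, and equal lengths do not tell such forms apart here.

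As shares of the summed GluA level per coding length, Gria2 held 45.5% ± 2.58 (SD, n = 2), Gria1 26.7% ± 3.30, Gria3 14.0% ± 1.30 and Gria4 13.8% ± 0.582. In replicate 1 the Gria2 share was 43.7% (41.1 to 46.4) and in replicate 2 it was 47.4% (46.01 to 48.7), so the intervals overlapped slightly. The Gria1 share was 29.03% (26.7 to 31.5) and 24.4% (23.2 to 25.5), with intervals apart. With coding transcripts alone, Gria1 held 40.8% ± 3.34, Gria2 27.5% ± 1.20, Gria4 21.7% ± 0.189 and Gria3 9.97% ± 1.95, so the order of the first and second subunit depends on that choice.

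Within the 5 TARPs of the set, Cacng4 held 29.2% ± 3.18 of the summed level per coding length (SD, n = 2) and Cacng8 25.9% ± 5.72. Cacng2 held 17.7% ± 0.439, Cacng3 14.7% ± 4.21 and Cacng7 12.5% ± 1.23. The Cacng8 share was 29.9% (26.1 to 33.98) in replicate 1 and 21.8% (19.7 to 24.1) in replicate 2. Cacng8 led the TARPs in replicate 1 and Cacng4 led them in replicate 2. In the RefSeq gene order, Cacng7 and Cacng8 are next to each other, with Cacng6 after Cacng8, and Cacng4 lies between Cacng1 and Cacng5. Cacng1 and Cacng6, which encode gamma subunits that are not TARPs, had no count in replicate 1 and 2 and 4 footprints in replicate 2. Cacng5 (γ-5), on the other side of Cacng4, is not in the set or in the summed level. It had 49 and 217 footprints and levels per coding length of 31.7 and 49.8. Cacng8 was also at 49.8 in replicate 2.

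The counts of each gene in the replicates were tested against the ratio of library sizes scaled by TMM (trimmed mean of M values), with an exact two-sided binomial test. P-values were adjusted by Benjamini-Hochberg over 16427 genes, and genes under 0.05 were called. The test compares 2 libraries of the same group and takes in counting noise alone. It called 17.4% of all genes tested, 5.95% higher and 11.5% lower in replicate 2. Of the 10 members it called 4, 2 in each direction. The members have a higher median level per coding length, 54.2, than all coding genes tested, 23.5. The median log2 ratio of the members was 0.01, as it was for all genes tested. Ratios below are replicate 2 over replicate 1.

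Both called GluA genes were higher in replicate 2. Gria2 had a log2 ratio of 0.42 (adjusted p = 2.3e-09, exact binomial test) and Gria3 of 0.49 (adjusted p = 0.00031, exact binomial test). Gria4, at 0.22, and Gria1, at 0.05, were not called (adjusted p = 0.203 and 0.790, exact binomial test). With library totals in place of TMM, which moved the ratios up by 0.12, Gria4 was called too, at 0.34 (adjusted p = 0.0184, exact binomial test). That scaling called 19.0% of all genes tested, 11.5% higher and 7.47% lower in replicate 2, and 5 of the 10 members.

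Both called auxiliary genes were lower in replicate 2. Cacng8 had a log2 ratio of -0.71 (adjusted p = 4.6e-06, exact binomial test) and Cnih2 of -0.53 (adjusted p = 0.0037, exact binomial test). The ratios of Cacng7, at -0.45, Cacng2, at -0.31, Cacng4, at -0.04, and Cacng3, at 0.32, were not called (adjusted p = 0.203, 0.284, 0.940 and 0.394, exact binomial test). With library totals the Cacng4 ratio was 0.09. The size of the Cacng8 ratio was at percentile 87.8 of all genes tested and that of Cnih2 at percentile 76.9. When edgeR's exact test was used with the common dispersion, which takes the difference between these same libraries as spread, none of the 10 genes was called, and none had an unadjusted p under 0.05. That test called 11 of all genes, with 721 at an unadjusted p under 0.05.

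The summed GluA level per coding length was 278 in replicate 1 and 374 in replicate 2, and the summed level of the 6 auxiliary genes was 410 and 348. Their ratio, auxiliary over GluA, was 1.48 in replicate 1 and 0.930 in replicate 2, or 1.20 ± 0.387 (SD, n = 2). The auxiliary genes were thus above the pore subunits in one animal and below them in the other. With coding transcripts alone the ratio was above 1 in both, at 2.19 and 1.46. For the 5 TARPs of the set alone the ratio to GluA was 0.903 and 0.609. A difference between 2 animals of 1 group has no replicate check of its own.

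The ratios between the libraries went with coding length and level, and markers of several regions and cell types differed too. The GluA genes have coding sequences of 2652 to 2724 nucleotides and the auxiliary genes of 483 to 1272. Among the other tested genes in the first range of lengths, 129 in number, the median log2 ratio was 0.07, and 14.7% were called. Among the 4771 in the second range it was -0.05, and 19.8% were called. Across the 13317 coding genes tested, Spearman's rho of the log2 ratio with coding length was 0.161, and with the level per coding length it was -0.260, both as descriptions of 1 pair of libraries. The trend on coding length was also removed, an alternative chosen after the data were seen. That setting called 2582 of 13317 genes and 4 of the 10 members. Gria2 was then at 0.36, Gria3 at 0.44, Cacng8 at -0.70 and Cnih2 at -0.40.

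**Figure D3:**
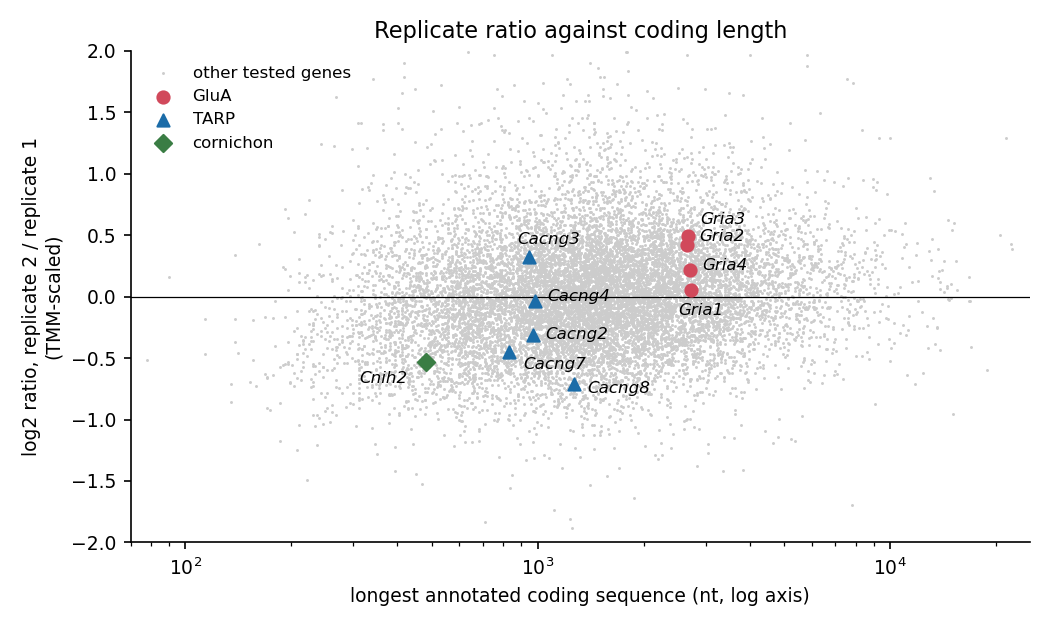
Log2 ratio of replicate 2 over replicate 1 (TMM-scaled) against the longest annotated coding sequence in nucleotides (log axis), with grey dots for the other tested coding genes and coloured symbols for the 10 members. The 4 GluA genes lie above 0 and the auxiliary genes, other than Cacng3, below it, at shorter coding lengths, though Cacng4 is above 0 with library totals; 34 genes beyond -2 or 2 are not drawn.

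Of 7 markers of excitatory forebrain neurons, 4 were called and all 7 had ratios below 0 under both scalings, with a summed level of 1076 CPM in replicate 1 and 807 CPM in replicate 2. Nrgn had the lowest ratio of them, -1.21 (adjusted p = 5.8e-49, exact binomial test). Markers of inhibitory neurons summed to 696 and 573 CPM, with 3 of 5 called, all lower. Those of oligodendrocyte precursors, which also carry AMPA receptors, summed to 526 and 408 CPM, with 4 of 5 called, all lower. On both of these lists all 5 ratios were below 0 with TMM, and 1 of 5 was above 0 with library totals. Markers of cerebellar granule neurons summed to 475 and 567 CPM and of Purkinje cells to 230 and 311 CPM, with 1 of 6 and 1 of 5 tested genes called, both higher. Differences were not limited to regional lists. Oligodendrocyte markers summed to 638 and 967 CPM, with 3 of 5 called, all higher. Of the 7 general neuronal markers, 4 were called, all lower. All 7 ratios were below 0 with TMM, and 3 of the 7 were above 0 with library totals. None of the 6 astrocyte and Bergmann glia markers was called. The part of regional or cell type makeup in the ratios of the 10 members was not tested.

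Genes that work with the receptor were described as 2 lists. Of 25 other auxiliary and assembly genes, all were tested, 2 were called higher and 4 lower in replicate 2, and the median log2 ratio was -0.15. Olfm1, a secreted olfactomedin that binds AMPA receptor complexes, had the highest level of the list, 402 and 369.5 per coding length, with a ratio of -0.25. The others called lower were Olfm2, its relative, at -0.46, Prrt1, a transmembrane partner of the receptor, at -0.47, and Vwc2, the secreted protein brorin, at -1.31, with 36 and 43 footprints. Those called higher were Porcn, an endoplasmic reticulum acyltransferase that binds GluA subunits during assembly, at 0.51, and Lrrtm4, a synaptic adhesion protein, at 0.50.

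The other cornichons were measured too. Cnih1, the cornichon that exports cargo in most cells, had levels per coding length of 203 and 199, so that Cnih2 stood at 0.786 and 0.604 of it. Cnih3, the other cornichon found with AMPA receptors, had 46.6 and 70.04. Cnih2 was above Cnih3 by 3.42 times in replicate 1 and 1.71 times in replicate 2.

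Of 15 trafficking, anchoring and editing genes, 4 were called higher and 3 lower, with a median log2 ratio of 0.02. The higher ones were the scaffolds Grip1 (0.55) and Dlg1 (0.71), the kinase anchor Akap5 (0.51), and Adarb1 (0.43), the deaminase that edits the pore site of the Gria2 RNA. Adarb1 had levels per coding length of 31.6 and 46.5. The lower ones were Nsf (-0.18), the ATPase that binds the tail of the Gria2 protein, and the pentraxins Nptx2 (-0.80) and Nptxr (-0.54), which gather AMPA receptors at synapses. Nptxr had the second highest mean level of both lists, with 258 and 195, although Cnih1 was above it in replicate 2. With library totals the medians were -0.03 for the first list and 0.15 for the second. Over both lists 6 genes were called higher and 7 lower with TMM, and 9 higher and 5 lower with library totals, so the balance of directions depended on the scaling. With TMM, 13 of 40 genes were called, or 32.5%, against 17.4% of all genes tested, and these genes have a higher median level per coding length, 45.7, than all coding genes tested, 23.5.

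The nearest families are the other ionotropic glutamate receptors. The 7 NMDA receptor subunit genes had a summed level per coding length of 303 and 332, so that GluA over NMDA was 0.917 in replicate 1 and 1.13 in replicate 2, or 1.02 ± 0.147 (SD, n = 2). The GluA sum was the lower in replicate 1 and the higher in replicate 2. Grin1, the subunit that every NMDA receptor needs, had levels of 158 and 191, and Gria2 stood at 0.769 and 0.927 of it. With all transcripts counted, Gria2 was 2.14 and 2.64 times Grin2b, the main partner of Grin1 in the neonatal forebrain. On its coding transcripts alone Gria2 had 48.7 and 64.9. These lie under the Grin2b levels of 56.8 and 67.1, which take in all Grin2b transcripts. Grin3b, with 2 and 1 footprints, had too few counts to be tested.

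The 7 kainate and delta receptor genes had a summed level per coding length of 134.9 and 133.6, and GluA was 2.06 and 2.80 times that sum, or 2.43 ± 0.524 (SD, n = 2). GluA was the higher in both libraries, and a test of 2 animals cannot give a two-sided p under 0.5. Gria3 and Gria4, the lower GluA subunits, were in both libraries above the highest of that group, Grik2, which had 30.6 and 37.9. In replicate 1 the Grik2 interval, 26.0 to 35.9, overlapped those of both genes. On its coding transcripts alone Gria3 had 15.7 and 25.9, under these Grik2 values, which take in all Grik2 transcripts. With coding transcripts alone, GluA over NMDA was 0.730 and GluA over kainate and delta was 1.62 on average. Of the NMDA genes, Grin1 (0.15) was called higher and Grin2d (-0.68) and Grin3a (-0.35) lower in replicate 2. Of the kainate and delta genes, Grik5 (-0.60) was called lower.

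**Figure D4:**
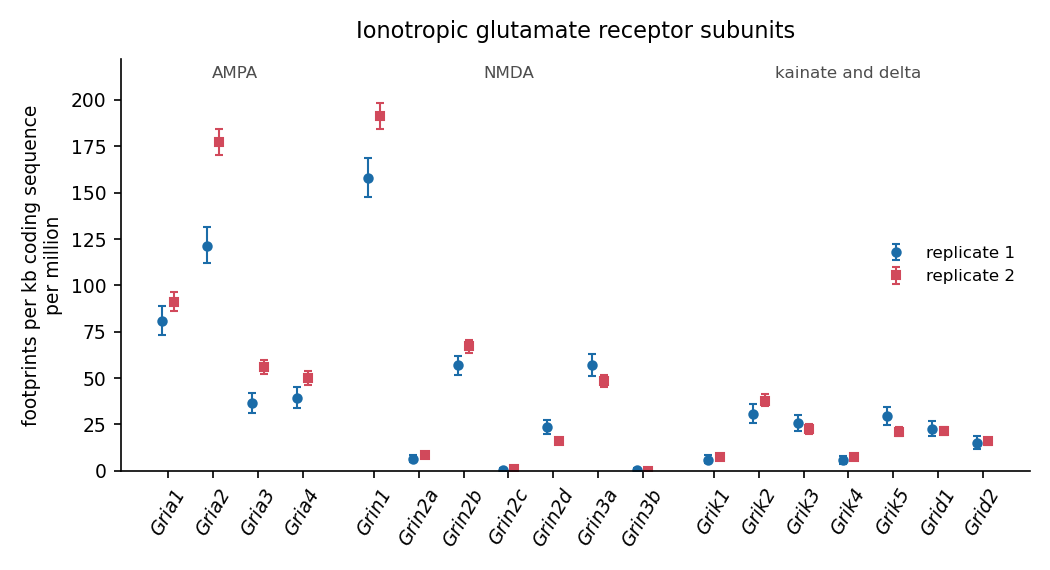
Level per coding length (footprints per kilobase of coding sequence in a library of 1000000) for the subunit genes of the AMPA, NMDA, and kainate and delta receptors, with circles for replicate 1, squares for replicate 2 and bars for Clopper-Pearson 95% intervals. With all transcripts counted, Gria2 and Grin1 are the highest of their families in both libraries, and all kainate and delta levels lie below 40. Gria1 is above Gria2 with coding transcripts alone, and the Grik2 interval reaches 41.2 in replicate 2.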

How the data were processed

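Footprints of 25 to 35 nucleotides from pooled polysome fractions of 2 brains were counted. The deposited counts are whole numbers per annotated transcript, which the authors had not normalized, with the annotated lengths beside them. The submitters' processing notes name Trimmomatic 0.36, Bowtie2 2.2.6, SAMtools and GRCm38.p4; the rule for footprints that match several transcripts or genes, and the use of strand, are not given in the sources used here, so counts on shared or overlapping sequence are uncertain.

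Counts of transcripts were summed per Ensembl gene identifier, and the genes of the lists were then found by symbol. In 43 pairs of transcripts of 1 gene with identical lengths, the mean squared difference over the sum was 1.04. Double counting would give 0. Independent counts at equal rates would give 1, and so would a random even split of shared footprints, so these cannot be told apart. Library sizes were scaled with TMM in edgeR 4.0.16 (factors 0.957 and 1.04). Ratios used a prior of 0.5 CPM, and genes that averaged 10 or more counts were tested with scipy 1.17.1. At a floor of 3 counts, a gene listed at 0 could have had 1.61 CPM in the first library or 0.570 CPM in the second. On counts for 16427 genes simulated with counting noise alone, the test recovered 84.0% of 200 genes changed 4-fold between the replicates. Smaller changes and spread between animals were not simulated, so this share does not bear on the calls reported here. With a single group there is no contrast for a quasi-likelihood test. The alternatives were library totals, DESeq2 1.42.0 size factors, no filter, the highest transcript, coding transcripts alone, edgeR's exact test, removed trends, and other lengths.

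The members were picked as a gene family and by no cutoff on values, but they, the lists and the tests were chosen with earlier results of these data known. All members are named. Of the other lists, genes called and the 3 highest and 3 lowest levels are named, and other relatives named were chosen after their values were seen. All 10 members matched a RefSeq table of GRCm38.p6, which was used for names and gene order; Epb41l1 has an older name in the deposited table. Protein and transcript sequences were not used here. The planned comparison with the genes nearest in level to the highest member is not reported here.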

Additional observations from a re-analysis of the deposited data

How the results depend on the processing

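The number of members called, 4, was 3 to 5 under library totals, DESeq2 size factors, no filter, the highest transcript, coding transcripts alone and both removed trends, and 0 under edgeR's exact test. For the 40 partner genes, 13 called, it was 10 to 14 under the same settings, except 5 with the highest transcript. It was 0 under edgeR's exact test, where 2 had an unadjusted p under 0.05. The number called over all genes, 2861 of 16427 tested, moved too. It was 1444 of 15353 with the highest transcript, 2511 of 25743 with no filter and 2368 of 13028 with coding transcripts alone. Library totals called 3123, DESeq2 size factors 2860 and the removed footprint density trend 2877 of 16427. The removed coding length trend called 2582 of 13317. With the highest transcript alone Gria3 was not called (0.43, adjusted p = 0.394, exact binomial test). The Gria1 ratio turned to -8.2e-05 with the highest transcript and to -0.0058 with the coding length trend removed, and the Cacng4 ratio to 0.085 with library totals; neither gene was called in these settings.

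The Gria2 share of GluA, 45.5%, was 30.03% per transcript length, 27.5% with coding transcripts alone and 14.1% when each coding transcript was divided by its own coding length. That last setting raises Gria1, which has a transcript with 13 annotated coding nucleotides. GluA over NMDA was 0.737, 0.730 and 0.651 in these settings, and GluA over kainate and delta 1.68, 1.62 and 2.96. Auxiliary over GluA, 1.20, was 1.82 with coding transcripts alone, 1.20 per transcript length and 1.0 with each transcript's own coding length. Leaving out either replicate gave 43.7% to 47.4% for the Gria2 share, 0.930 to 1.48 for auxiliary over GluA, 0.917 to 1.13 for GluA over NMDA and 2.06 to 2.80 for GluA over kainate and delta. No paired analysis was possible because the study has 1 group. Depth limits Cacng3 and Cacng7 most, with 52 footprints each in replicate 1.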
